A study of Mus musculus with 24 samples.

Results

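The average effect of DEHP over 4 sampling times was estimated for every gene in mouse liver, with attention to small differences that kept the same sign each time. All 24 arrays of the series entered the comparison, 12 from DEHP livers and 12 from corn oil livers, and all 18194 genes with their own probe set were tested. The DEHP group held male B6C3F1 mice gavaged with 1150 mg/kg/day of di(2-ethylhexyl) phthalate (DEHP), a plasticiser, in 10 ml/kg, with 3 arrays each at 2, 8, 24 and 72 h. The corn oil group held male B6C3F1 mice gavaged with the oil alone, with 3 arrays at each of the same times. B6C3F1 is a hybrid mouse strain used in long-term toxicity tests, the animals were 7 to 10 weeks old on arrival, and dosing was repeated every 24 h for 3 days. The labels name no engineered allele in either group. The design text gives 6 mice, and no label ties an array to an animal. Nor does a label state the doses given before the 24 h and 72 h samples. The p-values therefore measure the spread between these arrays. For the average, that spread includes the change of a gene's DEHP effect between times, so even effects pass more easily. Values are log2 signals, and 1 unit is a doubling of the signal.

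DEHP belongs to the peroxisome proliferators, compounds whose metabolites activate the nuclear receptor PPARα in rodent liver. PPARα binds DNA as a partner of RXR at a direct repeat of the hexamer AGGTCA with 1 base between the copies, and its known targets are the enzymes that take up, activate and oxidise fatty acids in peroxisomes, mitochondria and microsomes. In rodents such compounds are also known to lower the messenger RNA of a range of liver proteins, among them secreted plasma proteins and enzymes of amino acid breakdown.

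The precision is limited by the number of arrays. Per array, the median log2 signal was 6.46 to 6.53 in DEHP livers and 6.49 to 6.55 in corn oil livers. The mean of 10 hepatocyte markers was 13.3 to 13.4 in DEHP livers and 13.3 to 13.5 in corn oil livers, which are levels near the top of the range of the arrays. The 3' minus the 5' signal of Actb, a sign of RNA quality, was 0.497 to 0.714 in DEHP livers and 0.518 to 1.46 in corn oil livers, with the highest value in corn oil 8 h replicate 2. The highest mean of the neutrophil markers, 7.37, was that of corn oil 72 h replicate 1. Without these 2 corn oil arrays 818 genes passed the test below, against 794 with all arrays. DEHP replicate 2 and corn oil replicate 3 of 8 h share the number RC14 in their titles, and without both 500 genes passed. Exocrine pancreas markers averaged 6.81 to 10.5 in DEHP livers and 6.73 to 9.38 in corn oil livers, and none of the 12 passed the test in the average, also without adjustment.

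Averaged over the 4 times, 794 genes (4.36% of those tested) passed an adjusted p of 0.05, and these are the genes said below to have risen, fallen or changed. Of these, 239 (1.31%) rose and 555 (3.05%) fell. Most of the 794 kept the same sign at every time: 207 were higher in DEHP livers at all 4 times and 498 were lower at all 4. Over all genes, called or not, 3873 (21.3%) had the same sign at all 4 times, 1295 of them positive and 2578 negative. The 705 called genes of 1 sign were mostly small changes. An average under 1.5-fold (0.585 on the log2 scale) was found for 645 of them, 3.55% of the genes tested, and these 166 rises and 479 falls are called small persistent genes below. Their median size was 0.26, or 1.20-fold. At the edge of the size limit, Nat8f1 (-0.58) and Acadl (0.58) lay just inside it, and Carmil1 (-0.60) and Acadm (0.62) just outside.

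**Figure D1:**
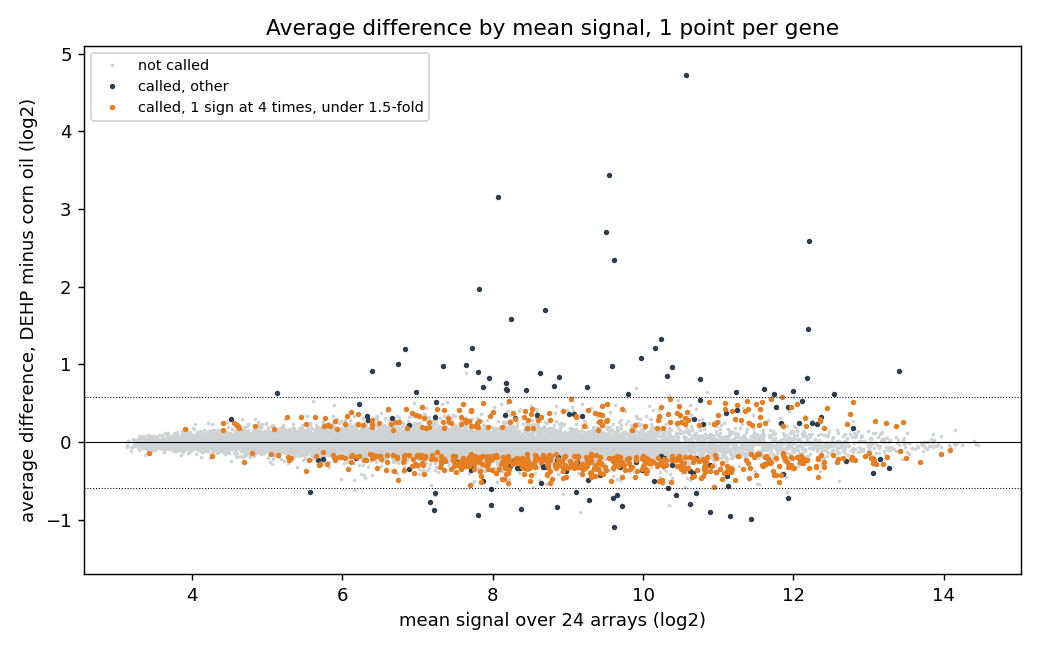
Each point is 1 of 18194 genes, with its mean log2 signal over 24 arrays on the x axis and its average difference, DEHP minus corn oil, on the y axis. The dotted lines mark 1.5-fold. The 645 small persistent genes (orange) lie mainly at middle and high signals and more of them lie below 0 (479) than above it (166).

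The balance of rises and falls depended on how the arrays were scaled. With the values as deposited, 30.1% of the changed genes were rises. The share was 44.1% after each array was centred on its median and 47.6% after quantile normalization between arrays. Among small persistent genes it was 25.7%, 41% and 44.3% in the same order. The median of the average over all genes was -0.02 as deposited, -0.01 after centring and -0.0008 after quantile normalization. Small persistent genes were also brighter than the rest, with a median log2 signal of 8.94 against 7.25 over all genes. Among the 6065 brightest genes 96 small persistent genes rose and 332 fell, and among the 6065 dimmest 29 rose and 38 fell. Of all genes with the same sign at every time, the brightest held 327 positive and 991 negative, the dimmest 548 and 651. The median average was -0.05 over the brightest genes and -0.0004 over the dimmest. The tilt towards falls at high signal was therefore not particular to the small persistent genes. No named gene that changed reversed its sign under any of these settings.

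The gain from averaging lay in the error. The median standard error was 0.06 for the average and 0.11 for the difference at a single time. At single times, 151 genes (0.83%) passed at 2 h, 752 (4.13%) at 8 h, 54 (0.297%) at 24 h and 760 (4.18%) at 72 h. Of the 645 small persistent genes, 344 passed at no single time (66 rises and 278 falls), 244 passed at 1 time, 49 at 2, 8 at 3 and none at all 4. A second probe set gave a partly separate reading of 379 small persistent genes, and it had the same sign for 326 of them (86.0%), against 5599 of 9012 genes (62.1%) over all genes with a second probe set.

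The largest persistent rise by average was that of Cyp4a14. Cyp4a14, which hydroxylates the omega end of fatty acids in microsomes, had 11.78, 13.30 and 13.37 in DEHP livers (lowest, median and highest of 12 arrays) and 6.55, 8.12 and 10.08 in corn oil livers. Its average difference was 4.73 ± 0.23 (SE; adjusted p = 8.24e-13). Ehhadh, the bifunctional enzyme of peroxisomal beta-oxidation, had 12.77, 13.69 and 13.85 in DEHP livers and 9.96, 11.04 and 11.40 in corn oil livers, with an average of 2.59 ± 0.13 (adjusted p = 8.24e-13). In neither gene did any DEHP array overlap a corn oil array, whatever the time. Acot1, a cytosolic acyl-CoA thioesterase, averaged 3.44 ± 0.22 and Vnn1, a pantetheinase that recycles coenzyme A precursors, 2.71 ± 0.18. Retsat, a retinol saturase, averaged 1.45 ± 0.19. Each of these 5 genes was separated between compounds at all 4 times, and none passed the test for a difference between times (adjusted interaction p of 0.082 to 0.79). Acot1 and Acot3, and the Cyp4a genes, are close paralogs, and probe sets of such genes may bind each other's messenger.

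Other large averages came from a few times. Pdk4, the kinase that switches off pyruvate dehydrogenase, averaged 3.15 ± 0.49, but its differences were 4.96 at 2 h, 5.97 at 8 h, 1.00 at 24 h and 0.68 at 72 h. G0s2, an inhibitor of triglyceride breakdown, averaged 1.33 ± 0.27 and Gadd45b, a stress response gene, 1.22 ± 0.27, and both came from the first times: G0s2 had 2.39, 2.37, 0.26 and 0.30 from 2 h to 72 h, and Gadd45b 2.33, 2.29, 0.16 and 0.09. Of the other 2 probe sets of Gadd45b, 1 had the opposite sign. The calls of both genes were lost without the 2 h or the 8 h arrays. Serpina12, a secreted serine protease inhibitor also called vaspin, fell by 0.99 on average (SE 0.19, adjusted p = 0.0033), with differences of -0.17, -0.45, -1.01 and -2.31 from 2 h to 72 h. Tff3, a secreted trefoil peptide, had the largest persistent fall (-1.09 ± 0.29, adjusted p = 0.034), with -2.72 at 72 h and -0.14 to -0.82 before. The call of Tff3 was lost in 11 of the 24 fits that left out 1 array, where its average ranged from -1.24 to -0.97, and without the 8 h, the 24 h or the 72 h arrays. Only 60 persistent genes reached 1.5-fold, 41 rises and 19 falls.

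The repeat that PPARα and RXR bind was searched in the RefSeq promoter windows of the persistent genes chosen for naming, and the matches are shown because 1 belongs to a small rise and the other to a large fall. The search covered 250 bases before to 50 after the gene start on both strands, for 2 copies of AGGTCA in the same direction with 1 base between them and up to 2 of the 12 letters changed. Of 54 genes, 37 had a window, and 2 of these held a match (5.41%), against 1268 of 32851 windows in all (3.86%). The site of Slc25a20 starts at base 7 after the gene start (build GRCm38.p6, chr9:108662134-108662163, plus strand, 30 bases shown). That of Serpina12 lies 209 to 197 bases before the gene start (GRCm38.p6, chr12:104044444-104044693, minus strand, 250 bases shown up to the gene start). Capitals mark the matched 13 bases, each with 2 letters changed, and a match of letters is a description of the sequence.
Slc25a20: ctgaatgtAGGTGAAAGGTCGgcggagccg
Serpina12: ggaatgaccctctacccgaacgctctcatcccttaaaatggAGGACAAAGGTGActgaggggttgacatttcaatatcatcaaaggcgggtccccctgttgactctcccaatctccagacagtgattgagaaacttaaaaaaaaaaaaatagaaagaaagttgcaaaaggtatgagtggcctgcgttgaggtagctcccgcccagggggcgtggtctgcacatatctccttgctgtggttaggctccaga

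Of the 66 small persistent rises that passed at no single time, 2 that act on fatty acids are described first. Slc25a20, the carrier that moves acylcarnitines into mitochondria, had 10.86, 11.33 and 12.02 in DEHP livers (lowest, median, highest) and 10.66, 10.83 and 11.69 in corn oil livers. Both groups were higher at 8 h than at the other times and overlapped when times were pooled. The difference was 0.48, 0.41, 0.31 and 0.41 from 2 h to 72 h, and the average was 0.40 ± 0.07 (adjusted p = 0.0013). Its second probe set averaged 0.48. Slc27a2, a very long chain acyl-CoA synthetase of peroxisomes and the endoplasmic reticulum, had 13.28, 13.45 and 13.69 in DEHP livers and 13.02, 13.26 and 13.51 in corn oil livers. Its average was 0.20 ± 0.04 (adjusted p = 0.0040), a 1.15-fold rise, with differences of 0.15 to 0.23 at the 4 times.

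Other small rises belonged to different processes. Qpct, which forms pyroglutamate at the ends of peptides, averaged 0.40 ± 0.07 (adjusted p = 0.00087), with 7.49, 7.93 and 8.30 in DEHP livers and 7.08, 7.43 and 8.08 in corn oil livers. Grhpr, an enzyme that reduces glyoxylate, averaged 0.28 ± 0.06 (adjusted p = 0.0061). Igfbp2, a secreted binding protein of insulin-like growth factors, averaged 0.44 ± 0.10 (adjusted p = 0.0075), with 0.06 at 2 h and 0.50 to 0.64 later. Abcg2, an efflux transporter, had a like time course, with 0.03 at 2 h, 0.42 to 0.64 later and an average of 0.39 ± 0.09 (adjusted p = 0.010). Psmb7, a catalytic subunit of the proteasome, averaged 0.21 ± 0.05 (adjusted p = 0.0076) and Psmb5, another, 0.22 ± 0.05 (adjusted p = 0.010). Without the 8 h arrays the calls of Slc27a2, Grhpr, Igfbp2, Abcg2, Psmb7 and Psmb5 were lost. Those of Grhpr, Igfbp2, Abcg2, Psmb7 and Psmb5 were also lost without the 24 h arrays, and those of Igfbp2, Psmb7 and Psmb5 without the 72 h arrays, while Slc25a20 and Qpct kept theirs whichever time or array was left out.

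**Figure D2:**
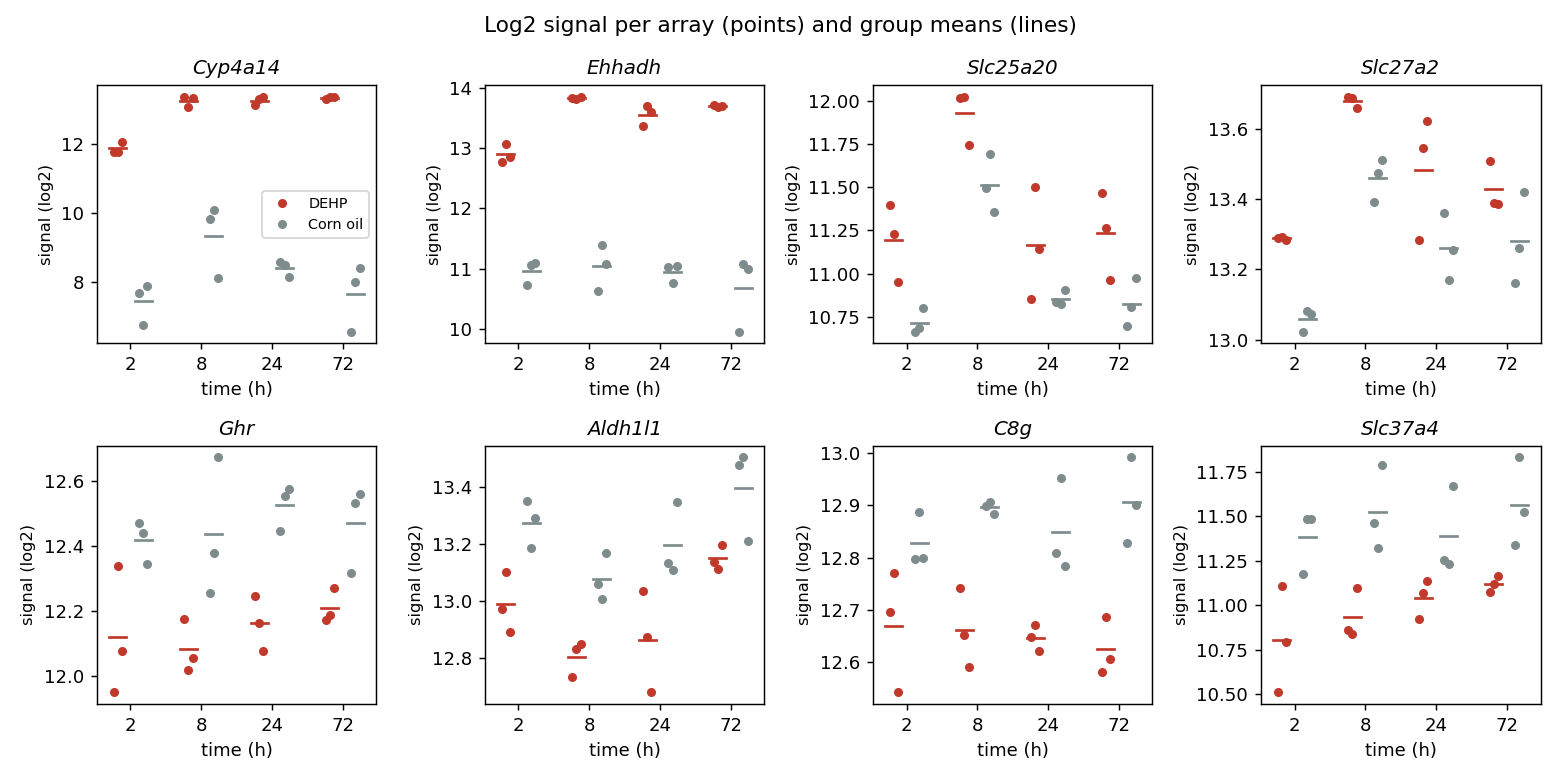
Log2 signal on the y axis of every array of 8 genes (points; DEHP in red, corn oil in grey) by time in hours on the x axis, with lines at the means of 3 arrays. Cyp4a14 and Ehhadh are apart by 2.6 to 4.7 on average, Slc25a20, Slc27a2, Ghr, Aldh1l1, C8g and Slc37a4 by 0.2 to 0.5 in size, and in the lower row all DEHP arrays of a time lie under all corn oil arrays of that time.

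The small persistent falls that passed at no single time were led by Ghr, the growth hormone receptor. Ghr had 11.95, 12.17 and 12.34 in DEHP livers (lowest, median, highest) and 12.26, 12.46 and 12.67 in corn oil livers. Its differences were -0.30, -0.35, -0.36 and -0.26 from 2 h to 72 h, with no overlap of arrays within any time, and the average was -0.32 ± 0.05 (adjusted p = 0.00046), a 1.25-fold fall. Its next brightest probe set averaged -0.32. Aldh1l1, the folate enzyme that oxidises 10-formyltetrahydrofolate, had 12.68, 12.93 and 13.20 in DEHP livers and 13.01, 13.20 and 13.50 in corn oil livers. Its differences were equally even, between -0.25 and -0.33 at the 4 times, again without overlap within a time, and averaged -0.29 ± 0.05 (adjusted p = 0.00066). Lect2, a secreted protein of hepatocytes, averaged -0.38 ± 0.07 (adjusted p = 0.0019) and Gstp3, a glutathione transferase, -0.38 ± 0.08 (adjusted p = 0.0035). Both were also separated at all 4 times.

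Several further falls were of similar size. Gnmt, which uses S-adenosylmethionine to methylate glycine, had 13.36, 13.53 and 13.79 in DEHP livers and 13.68, 13.80 and 13.98 in corn oil livers, and averaged -0.26 ± 0.05 (adjusted p = 0.0015). Creb3l2, a membrane-bound transcription factor of the secretory pathway, averaged -0.48 ± 0.08 (adjusted p = 0.00060). Its differences lay between -0.42 and -0.55, although the arrays of the 2 compounds overlapped at 1 of the 4 times. Naglu, a lysosomal glycosidase that degrades heparan sulfate, averaged -0.32 ± 0.05 (adjusted p = 0.00098). Ugt2a3, a glucuronosyltransferase, averaged -0.31 ± 0.06 (adjusted p = 0.0033), and was separated at 1 time. The calls of Ghr, Aldh1l1, Lect2, Gstp3, Gnmt, Creb3l2, Naglu and Ugt2a3 held without any 1 array and without any 1 time. Bhlhe40, a repressor of the circadian clock, fell by more (-0.71 ± 0.14, adjusted p = 0.0032) with -0.73, -0.59, -0.77 and -0.77 at the 4 times, and it too passed at no single time.

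Separation of the arrays could be read without any fitted error. In 52 genes (0.286% of those tested) the DEHP arrays lay on 1 side of the corn oil arrays at all 4 times in the same direction, and 35 of the 52 were small persistent genes. A further 162 small persistent genes were separated at 3 times, 299 at 2, 141 at 1 and 8 at none. Over all 18194 genes, called or not, 341 were separated at 3 or 4 times in 1 direction. A called average of 1 sign favours separation, so the counts among small persistent genes are a description only. Pooled over times, the 12 DEHP arrays and the 12 corn oil arrays did not overlap in 8 genes. These were Cyp4a14, Ehhadh, Cyp4a31 (another member of the Cyp4a cluster) and Acot2 (a mitochondrial acyl-CoA thioesterase), and 4 genes with averages of 0.22 to 0.51 in size. C8g, a chain of complement component 8, had 12.54, 12.65 and 12.77 in DEHP livers and 12.78, 12.88 and 12.99 in corn oil livers, with an average of -0.22 ± 0.04 (adjusted p = 0.00078). Slc37a4, the transporter that carries glucose 6-phosphate into the endoplasmic reticulum, had 10.51, 11.07 and 11.16 in DEHP livers and 11.18, 11.47 and 11.83 in corn oil livers, with an average of -0.49 ± 0.08 (adjusted p = 0.00038). For both genes the nearest arrays of the 2 groups were 0.01 apart, while the medians differed by -0.24 for C8g and -0.40 for Slc37a4. The remaining 2, named here after their values were seen, were Chkb, a choline kinase (0.49 ± 0.06), and Rdh5, a retinol dehydrogenase (-0.51 ± 0.07).

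Small persistent genes were not equally far from corn oil at all times. The 166 rises had median differences of 0.18 at 2 h, 0.33 at 8 h, 0.29 at 24 h and 0.25 at 72 h. The 479 falls had medians of -0.18, -0.32, -0.20 and -0.28 in the same order. Both sets were nearest to 0 at 2 h and farthest at 8 h. At 8 h, 67 of the rises and 133 of the falls passed on their own, while at 24 h 15 rises and 4 falls did. These genes were chosen for 1 sign at all times, so the sign itself is part of the choice and only the sizes are described.

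**Figure D3:**
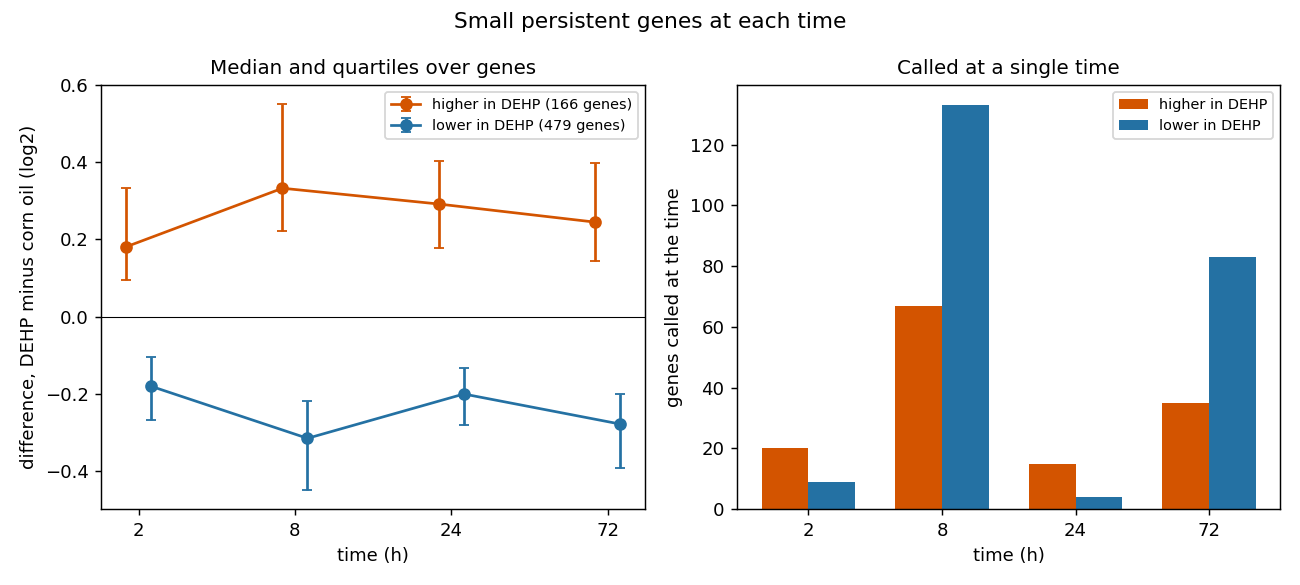
Left, the difference between DEHP and corn oil livers at each time (x axis, hours) as the median over genes, with bars from the lower to the upper quartile, for 166 rises and 479 falls. Right, how many of them passed the test at that time alone. The medians stay between 0.18 and 0.33 in size, and 8 h gives the highest counts (67 and 133).

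Whether the sign of an average carried over to a time it had not used was examined by leaving out each time in turn and calling genes from the other 3. Of 184 genes called without the 8 h arrays, 173 (94.0%) had the same sign at 8 h, against 61.5% of all genes. Of 568 called without 24 h, 472 (83.1%) had the same sign there, against 62.1%. Of 358 called without 72 h, 281 (78.5%) did, against 60.7%. Without the 2 h arrays 1240 genes were called, more than with all arrays, and leaving out corn oil 2 h replicate 1 alone gave 1236. Of the 1240, 746 (60.2%) had the same sign at 2 h, against 51.7% of all genes. By direction, 228 of 350 rises were positive at 2 h and 518 of 890 falls were negative. Of all genes 56.8% were negative at 2 h, so the falls showed little carry-over to that time beyond this share. Likewise, of the 89 genes called with all arrays whose sign differed between times, 54 had the opposite sign at 2 h, 17 at 24 h, 16 at 72 h and 2 at 8 h.

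**Figure D4:**
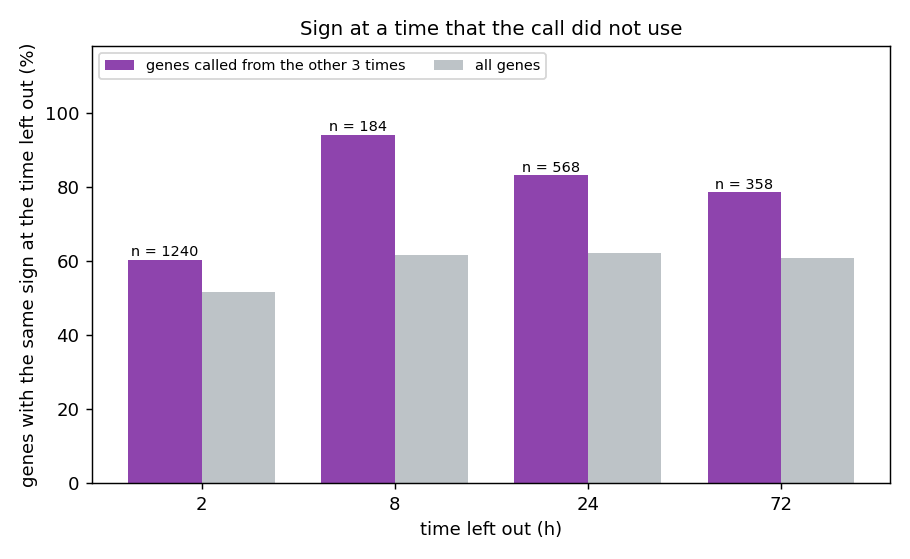
Share of genes (y axis, %) whose average over 3 times has the same sign at the time left out (x axis, hours), for genes called from those 3 times (purple, with their number) and for all genes (grey). The share of called genes is 60.2% at 2 h and 78.5% to 94.0% at the other times, above that of all genes each time.

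Genes were then grouped by 54 hand-made lists. The counts of each list stand beside 1.31% of all genes that rose and 3.05% that fell. Fits without 1 time called other numbers over all genes. Without 2 h 350 genes rose and 890 fell, without 8 h 85 and 99. Without 24 h it was 153 and 415, and without 72 h 171 and 187. Calls were thus lost over all genes without 8, 24 or 72 h, and list counts from those fits stand beside these numbers. The medians of the lists stand beside -0.02 over all 18194 genes and -0.05 over the 6065 brightest. Counts of signs stand beside 11012 negative and 7182 positive averages over all genes. Mitochondrial fatty acid oxidation had 14 rises and 1 fall among 23 measured genes, with a median average of 0.40. At least 13 of its members rose under each alternative tried. Acadm, the medium chain acyl-CoA dehydrogenase, averaged 0.62 ± 0.06 (adjusted p = 1.25e-06), and Acadl, the long chain enzyme, 0.58 ± 0.07 (adjusted p = 2.19e-05). Both were separated at all 4 times, with differences from 2 h to 72 h of 0.39, 0.47, 0.71 and 0.88 for Acadm and of 0.26, 0.43, 0.77 and 0.86 for Acadl, though neither passed the interaction test (adjusted p = 0.17 and 0.071). Peroxisomal beta-oxidation had 14 rises and 2 falls among 27, with a median of 0.22. Hsd17b4, the second bifunctional enzyme of that pathway, averaged 0.49 ± 0.06 (adjusted p = 1.41e-05), with 0.20 at 2 h and 0.50 to 0.65 later. Nudt7, a peroxisomal coenzyme A hydrolase, went the other way (-0.21 ± 0.06, adjusted p = 0.049), a call lost in 17 of the 24 fits without 1 array (-0.24 to -0.18) and without any 1 time.

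Related lists were more mixed. Peroxisome biogenesis and matrix had 6 rises and 3 falls among 29, with a median of 0.05, and 3 rises and 1 fall without the 8 h arrays. Lonp2, the peroxisomal Lon protease, averaged 0.33 ± 0.05 (adjusted p = 0.00042), and Pex11a, a membrane protein of peroxisome division, 0.81 ± 0.12 (adjusted p = 0.00015). Pex11a had 0.96, 1.40, 0.37 and 0.52 from 2 h to 72 h. Lipid uptake and droplets had 7 rises and 1 fall among 28 (3 rises without the 8 h arrays). Besides G0s2, the rise of largest average, they included Mgll, monoglyceride lipase (0.49 ± 0.08, adjusted p = 0.00069), with 2 of its 3 other probe sets of the same sign, and Plin2, a droplet coat protein (0.52 ± 0.09, adjusted p = 0.00078). Plin2 had 0.93, 0.72, 0.30 and 0.13 from 2 h to 72 h, and it passed the interaction test (adjusted p = 0.026). Of the 28 genes 10 passed that test, against 2.08% of all genes. Fabp4, a fatty acid binding protein of adipocytes and macrophages, averaged 0.82 ± 0.20 (adjusted p = 0.015), from 7.41 to 9.90 in DEHP livers and from 6.84 to 8.28 in corn oil livers, and its call was lost without the 24 h or the 72 h arrays. Of its 3 other probe sets, 2 had the same sign. The 7 adipocyte markers measured averaged 7.35 to 7.96 in DEHP livers and 7.21 to 7.60 in corn oil livers, Fabp4 was the 1 marker of the 7 that rose, and their part in its value was not tested. Genes of drug metabolism under the receptors CAR and PXR had 7 rises and 1 fall among 24, and 2, 4 and 3 rises without the 8 h, the 24 h and the 72 h arrays in turn. Cyp2b10, a cytochrome P450, averaged 1.97 ± 0.40, most of it from 5.13 at 8 h, whereas Aldh1a1, the retinaldehyde dehydrogenase, had an even 0.17 to 0.30 at the 4 times and an average of 0.24 ± 0.04 (adjusted p = 0.00078).

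Complement and coagulation factors, which hepatocytes make and secrete, had the highest share of falls among the 54 lists. Of 39 measured genes 22 fell and none rose. All 39 averages were below 0, against 11012 of 18194 over all genes, with a median of -0.22. F7, coagulation factor VII, had 10.23, 10.40 and 10.69 in DEHP livers (lowest, median, highest) and 10.57, 10.85 and 11.23 in corn oil livers, and averaged -0.44 ± 0.07 (adjusted p = 0.00042). Masp1, a protease of the lectin pathway of complement, had 10.40, 10.76 and 10.90 in DEHP livers and 10.82, 11.05 and 11.51 in corn oil livers, and averaged -0.37 ± 0.06 (adjusted p = 0.00042). F7, Masp1 and C8g were each separated at all 4 times. The list as a group was not lower at 2 h: its median difference was 0.02 at 2 h, -0.24 at 8 h, -0.24 at 24 h and -0.37 at 72 h. After centring 18 members fell and after quantile normalization 22, while without the 8 h arrays 8 fell and without the 72 h arrays 11. In bulk tissue, fewer cells of a type and less RNA per cell cannot be told apart.

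Other lists of secreted proteins held fewer called genes. Of 34 other plasma proteins and apolipoproteins 7 fell and none rose, with a median of -0.08, and 2, 4 and 2 fell without the 8 h, the 24 h and the 72 h arrays in turn. Itih2, a chain of the inter-alpha-trypsin inhibitors, averaged -0.30 ± 0.06 (adjusted p = 0.0028) and Fetub, a fetuin that inhibits metalloproteases, -0.30 ± 0.06 (adjusted p = 0.0034), and both calls were lost without the 72 h arrays. Albumin (Alb), the most abundant plasma protein, averaged -0.03 ± 0.03 (adjusted p = 0.61). Its mean signal, 14.45, was the highest of all genes and close to the highest value on any array (14.55), so a difference in Alb could not be read reliably. Of 24 acute phase genes 1 fell (4.17%), near the 3.05% of falls over all genes. It was Il6ra, the receptor of interleukin 6 (-0.53 ± 0.12, adjusted p = 0.014), which was not called without the 8 h or the 72 h arrays. The list's median ran from 0.36 at 2 h to -0.63 at 72 h.

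Amino acid catabolism and the urea cycle showed the small kind of change. Of 49 measured genes 9 fell and none rose, 7 of the 9 passed at no single time, and 19 of the 49 kept 1 sign at all times. The median was -0.09. Prodh, proline dehydrogenase, had 10.08, 10.25 and 11.05 in DEHP livers and 10.59, 11.05 and 11.45 in corn oil livers, and averaged -0.65 ± 0.09 (adjusted p = 0.00017), with -0.84 at 2 h and -0.26 at 72 h. Cps1, which starts the urea cycle, averaged -0.19 ± 0.05 (adjusted p = 0.017), and Fah, the last enzyme of tyrosine breakdown, -0.16 ± 0.04 (adjusted p = 0.0077). Their calls were lost without the 8 h or the 72 h arrays, that of Cps1 also without the 24 h arrays, and 6 members of the list fell after centring. Without the 8 h, the 24 h and the 72 h arrays in turn 2, 4 and 3 members fell, without both arrays numbered RC14 4, and without 1 array 5 to 11, with 5 where the second corn oil replicate of 2 h or of 72 h, or the third of 8 h, was left out.

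Sugar metabolism and growth hormone signalling held further falls. Of 26 genes of glycolysis and gluconeogenesis 7 fell and 1 rose, with a median of -0.07. Khk, ketohexokinase, which phosphorylates fructose, had 11.30, 11.49 and 11.92 in DEHP livers and 11.71, 12.05 and 12.41 in corn oil livers, and averaged -0.51 ± 0.08 (adjusted p = 0.00029). Pklr, liver pyruvate kinase, averaged -0.68 ± 0.14 (adjusted p = 0.0046), and its arrays were separated at 1 time. Ppp1r3c, which brings a phosphatase to glycogen, had the lowest average of the list (-0.82, adjusted p = 0.040), but its difference was -2.29 at 8 h and 0.38 at 24 h, and its call was lost in 14 of the 24 fits without 1 array. Without the 2 h, the 8 h or the 72 h arrays 4, 3 and 4 genes of the list fell in turn, and 4 to 8 fell without 1 array, with 4 where corn oil 8 h replicate 3, DEHP 8 h replicate 1 or corn oil 72 h replicate 2 was left out, and 4 without both arrays numbered RC14. Of 21 genes of growth hormone and IGF signalling 4 fell and 1 rose, with 7 falls without the 2 h arrays and 2 without the 8 h arrays. Besides Ghr, the falls included Igf1, insulin-like growth factor 1, which had 12.30, 12.48 and 12.64 in DEHP livers and 12.54, 12.70 and 12.85 in corn oil livers and averaged -0.22 ± 0.04 (adjusted p = 0.0025). Igf1 was separated at all 4 times, and its difference was -0.12, -0.15, -0.27 and -0.33. Igfals, the subunit that holds IGF in its circulating complex, averaged -0.33 ± 0.07 (adjusted p = 0.0063) with differences of -0.29 to -0.38. The call of Igf1 was lost without the 72 h arrays and that of Igfals without the 8 h arrays.

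**Figure D5:**
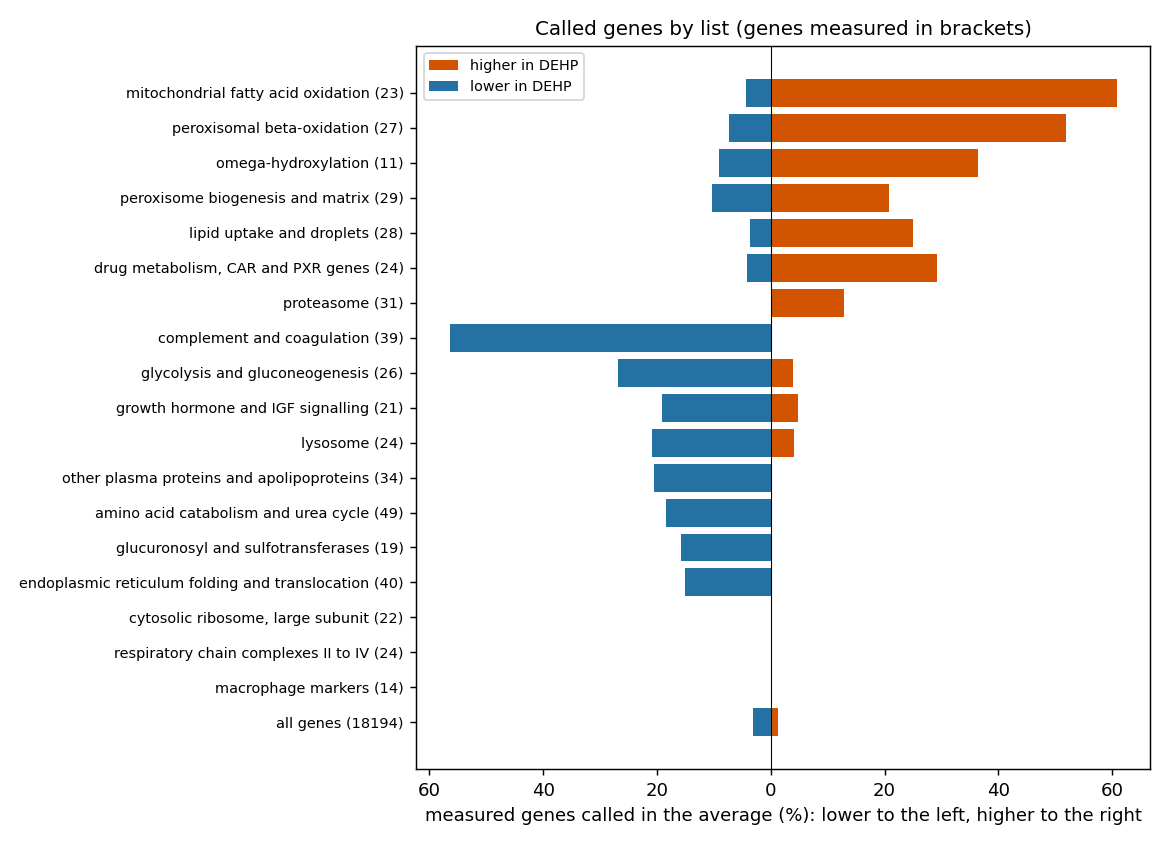
Share of measured genes (x axis, %) that fell (left, blue) or rose (right, orange) in DEHP livers on average, for 18 of the 54 gene lists and for all genes (bottom), with the number measured in brackets. Fatty acid oxidation lies to the right (14 of 23 and 14 of 27), complement and coagulation to the left (22 of 39), and the lists of the large cytosolic ribosomal subunit, of respiratory chain complexes II to IV and of macrophage markers hold no called gene.

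In the secretory pathway and protein turnover, the proteasome list held rises and the others mostly falls. Of 40 genes of endoplasmic reticulum folding and translocation 6 fell and none rose, with a median of -0.13. Derl2, which helps to remove misfolded proteins, averaged -0.37 ± 0.06 (adjusted p = 0.00078), and Xbp1, a transcription factor of the unfolded protein response, -0.42 ± 0.09 (adjusted p = 0.0065), with -0.02 at 2 h and -0.72 at 8 h. The call of Xbp1 was lost without the 8 h or the 72 h arrays, and the list then held 1 fall each time, while 3 fell without both arrays numbered RC14. Of 31 proteasome genes 4 rose and none fell. Of their averages 27 were positive, against 7182 of 18194 over all genes, with a median of 0.08. No proteasome gene rose without the 8 h arrays and 1 without the 24 h or the 72 h arrays, while 6 proteasome genes rose after quantile normalization. Of 24 lysosomal genes 5 fell and 1 rose, with 3 falls after centring, 1 without the 8 h arrays, none without the 72 h arrays and 3 to 6 without 1 array. The lowest count, 3, came without corn oil 8 h replicate 1, DEHP 8 h replicate 3, the third replicate of either 24 h group, corn oil 72 h replicate 2, DEHP 72 h replicate 1 or DEHP 72 h replicate 2. Macrophages are rich in lysosomes, and none of 14 macrophage markers passed in the average (1 at an unadjusted p under 0.05). However, all 14 averages were negative, against 11012 of 18194 over all genes. The median of the markers was -0.15, and their median difference was -0.73 at 72 h. The mean of the macrophage markers was 8.30 to 9.21 in DEHP livers and 8.21 to 9.35 in corn oil livers, and their part in the lysosomal falls was not tested.

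Large groups of housekeeping genes held no gene called by limma, against 4.36% called over all genes. For the smaller of these lists an absence of calls says little beside that share. The groups were 22 and 23 proteins of the large and small cytosolic ribosomal subunits (of 46 and 33 listed) and 73 of the mitochondrial ribosome. The others were 24 of respiratory chain complexes II to IV, 16 of ATP synthase, 38 splicing factors and 29 cytoskeletal genes. Without adjustment, p was under 0.05 for 3, 2, 2, 4, 2, 4 and 5 of them in that order, against 3666 of 18194 over all genes. Their median averages lay between -0.07 and 0.01. In each of these lists the medians at single times had both signs, which the average partly cancels. The mitochondrial ribosome had -0.15 at 8 h and 0.20 at 24 h. Complexes II to IV had -0.10 at 8 h and 0.12 at 72 h, and ATP synthase -0.14 and 0.09. In respiratory chain complex I, 1 of 34 genes rose: Ndufab1, an acyl carrier protein of mitochondria that also serves fatty acid synthesis there (0.42 ± 0.06, adjusted p = 0.00023). That call was lost when all 5 probe sets of Ndufab1 were averaged. Markers of endothelium, stellate cells, bile duct, lymphocytes, neutrophils and red blood cells held no called gene, with medians from -0.10 to 0.04 and 0 to 2 genes each at an unadjusted p under 0.05.

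The receptors themselves were not among the called genes. Ppara averaged -0.11 ± 0.11 (adjusted p = 0.58) and its partner Rxra -0.09 ± 0.06 (adjusted p = 0.42). Nr1i3, the receptor CAR, averaged 0.15 ± 0.08 (adjusted p = 0.32) and Nr1i2, the receptor PXR, 0.16 ± 0.09 (adjusted p = 0.33). None of the 4 passed the test in the average, which does not show that they were equal. Rxra passed at 8 h alone (-0.38, adjusted p = 0.015), with 0.19 at 2 h, and in the interaction test (adjusted p = 0.0435). No other probe set of Ppara or Rxra shared the sign of the one used. Cpt1a, which admits fatty acids to mitochondria, had 0.31, 0.21, 0.15 and 0.07 from 2 h to 72 h and an average of 0.18 ± 0.06 (adjusted p = 0.074). Catalase (Cat), a peroxisomal enzyme, averaged -0.05 ± 0.05 (adjusted p = 0.56), and Mki67, a marker of dividing cells, 0.06 ± 0.12 (adjusted p = 0.80). The mean signal of Mki67 was low (5.68), and its difference was 0.46 at 72 h and -0.11 to -0.03 before. The median difference of 27 mitosis genes was 0.36 at 72 h, against -0.03 over all genes, and -0.08 to 0.01 before.

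An average hides effects that reverse or last for 1 time. The interaction test found 378 genes (2.08%) whose DEHP effect differed between times, 66 of which also passed in the average and 17 of which were small persistent genes. Hspa8, a constitutive heat shock chaperone, averaged -0.06 ± 0.11, from differences of -0.37, 0.68, 0.07 and -0.61. Chka, a choline kinase, averaged -0.38 ± 0.18 (adjusted p = 0.23), with 0.41 at 2 h and -1.73 at 72 h. Cdkn1a, an inhibitor of the cell cycle, averaged 0.45 ± 0.21 (adjusted p = 0.23), with 1.81 at 2 h and -0.81 at 72 h. Conversely, Gstt2, a glutathione transferase, averaged 0.85 ± 0.15 (adjusted p = 0.0017) although its difference at 2 h was -0.03, and those at 8, 24 and 72 h were 0.69, 1.28 and 1.45.

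The calls of small persistent genes were followed in fits without 1 array and in fits without 1 time. A fit without 1 time leaves out 6 arrays, so the 2 kinds of fit differ in power and their counts cannot be compared. Of the 645 genes, 395 (289 falls and 106 rises) were called in each of the 24 fits that left out 1 array. In the fits that left out 1 time, 505 remained without 2 h, 370 without 24 h, 224 without 72 h and 122 without 8 h, and 83 (55 falls and 28 rises) were called in all 4. Without corn oil 2 h replicate 1, 1017 genes met the rule for small persistent genes, against 645 with it, and without any other single array the number was within 1.5 times of 645.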

How the data were processed

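Liver RNA was measured on 24 Affymetrix arrays of 45101 probe sets. The authors deposited log2 signals, made with RMA per the submitters' processing notes, whose version is not given in the sources used here. They ran from 2.84 to 14.55, and no detection calls were used. Groups came from the sample labels.

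Probe sets with 1 gene symbol (34958) were joined to genes through the platform annotation, and for each of 18194 genes the probe set of highest mean signal was taken. With R 4.3.3 and limma 3.58.1, the average came from a model of time and DEHP over all 24 arrays (19 residual and 5.50 prior degrees of freedom), and single times and the interaction F test from a model of 8 group means (16 and 6.21). Benjamini-Hochberg adjustment ran over all genes, with a threshold of 0.05. A small persistent gene had 1 sign at all 4 times, a called average and a size under 1.5-fold. The scripts were tested on simulated data. A further 10092 probe sets without a single gene symbol were tested apart.

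The genes, lists and alternatives were chosen with earlier results of these data known. The text names the 12 largest persistent rises and falls, the 15 small rises and 15 small falls of smallest p that passed at no single time, from each list the 3 called members of smallest p (or the 1 of smallest p), fixed receptors and target genes, the 4 largest called genes of differing sign, the 6 genes of smallest p and the 4 of smallest interaction p not called in the average, or a part of these. Predicted or unnamed genes were left out. The lists covered lipid, bile acid, energy, drug, amino acid and sugar metabolism, ribosomes and translation, protein folding and turnover, plasma proteins, hormones, sex-biased genes, the clock, cell division, stress and cell type markers. Alternatives changed the error estimate, the blocks, the filter (above the 40th percentile of signal), the probe set choice, the variance trend, array weights, scaling, thresholds, covariates (Actb, pancreas markers) and the arrays or times used. Promoter windows were taken from RefSeq (GRCm38.p6).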

Additional observations from a re-analysis of the deposited data

Results flagged for a closer look

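Among the 153 genes named by the rule, 24 had a DEHP effect that differed between times by the interaction F test of limma. Over all genes 378 (2.08%) did. The rule takes some genes because their effect differs between times, so part of the 24 was set by the choice. The adjusted interaction p was 1.03e-08 for Pdk4 and 2.15e-06 for Cyp2b10, both largest at 8 h (5.97 and 5.13). It was 1.82e-05 for Apol7a and 0.000119 for Gpr155, whose differences at 8 h were -1.60 and -1.10 and lay between -0.18 and 0.09 at the other times. It was 3.13e-05 for Chka and 0.000119 for Hspa8, which changed sign between times. It was 0.000395 for Cdkn1a, 0.000668 for Rab30, 0.000898 for Slc16a1, 0.00304 for Gadd45b, 0.0119 for G0s2, 0.0231 for Fgf21 and 0.0259 for Plin2, all higher in DEHP livers at 2 h by 0.73 to 2.39 and nearer to 0 or below it at 72 h. It was 0.000597 for Hsd3b5 and for Serpina12, 0.00148 for Slc22a7 and 0.00136 for Ppp1r3c. Hsd3b5 and Ppp1r3c were lowest at 8 h (-1.96 and -2.29). It was 0.00911 for Acot3, 0.0124 for Cyp4a31, 0.0183 for Gstt2, 0.0244 for Cyp7a1 and for Foxa3, 0.0308 for Hyou1 and 0.0435 for Rxra. Of these, Serpina12, Slc22a7 and Cyp4a31 kept 1 sign and were farthest from 0 at 72 h (-2.31, -1.62 and 3.04).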

How the results depend on the processing

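With a replicate block, 740 genes were called in the average, 598 were small persistent and 382 were called in the interaction, against 794, 645 and 378 without it, and no named gene called in the average turned its sign. Deviations of same-numbered DEHP and corn oil arrays correlated by more than 0.1 in 1 of 12 pairs (-0.35 to 0.14), and no label states whether such arrays were handled together. The first replicates carry RC1 to RC8 in their titles and the later ones numbers from RC9 to RC24, and the titles do not explain these numbers. With first against later replicates as a block, 831 genes were called in the average, 678 were small persistent and 425 were called in the interaction. At an adjusted p of 0.01 the average held 294 genes (111 higher, 183 lower), the small persistent set 231 (69 and 162) and the interaction 119. The spread within groups alone, without the change of the effect between times, gave 1166 calls (361 higher). Quantile normalization gave 389 higher calls and 291 small rises, and median centring 351 lower calls and 293 small falls. Array weights gave 890 interaction calls and the Actb covariate 224. Without the 2 h arrays there were 1240 calls (890 lower), 1119 small persistent genes (285 and 834) and 188 interaction calls. Without 8 h there were 184 (85 and 99), 136 (50 and 86) and 173, without 72 h 358 (187 lower), 279 (166 lower) and 100, and without 24 h 153 higher calls and 101 small rises. Without both arrays numbered RC14 there were 500 calls (333 lower) and 400 small persistent genes (108 and 292). Leaving out 1 array gave 545 to 1236 calls (186 to 369 higher, 359 to 867 lower), 434 to 1017 small persistent genes (122 to 277 and 312 to 740) and 229 to 499 interaction calls. The highest counts in the average came without corn oil 2 h replicate 1 (241 interaction calls) and the lowest without corn oil 8 h replicate 3. Small falls numbered 319 without corn oil 24 h replicate 3, and the interaction 242 and 229 without DEHP 72 h replicates 2 and 3. The cause was not tested, beyond fewer arrays or a stricter threshold. Of 120 named genes called in the average, 107 kept the call without each array and 50 without each time.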

Other observations

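Of the 10092 probe sets without a single gene symbol, 69 were called in the average, 27 higher and 42 lower in DEHP livers, and 68 of them had 1 sign at all 4 times.

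Called genes of some further lists are given as values, beside 3.05% lower and 1.31% higher over all genes, and with so few calls a list the counts say nothing particular to it. Of 19 aminoacyl-tRNA synthetases 2 fell, Eprs and Sars, and none rose. Of the 19 averages 17 were negative, against 11012 of 18194 over all genes. The median was -0.13 and was widest at 72 h (-0.34). The call of Eprs was lost in 18 of the 24 fits without 1 array and that of Sars in 13, and 0 to 3 of the list fell in those fits. Of 32 genes of vesicle transport to the Golgi 2 fell and 1 rose, and 1 to 3 fell without 1 array. The call of Lman1, a cargo receptor and 1 of the 2, was lost in 14 of those 24 fits. Kdelr2, the receptor that returns proteins to the endoplasmic reticulum, averaged -0.24 ± 0.05 (adjusted p = 0.010) and was between -0.14 and -0.32 at the 4 times, and its call was lost without the 8 h or the 72 h arrays. Of 21 clock genes 2 fell, Bhlhe40 and Per2, a repressor of the clock loop, which averaged -0.22 ± 0.05 (adjusted p = 0.0086) with -0.18 to -0.26 at the 4 times and lost its call without the 8 h arrays. Of 37 DNA replication genes 2 rose, among them Mcm5, a subunit of the replicative helicase (0.39 ± 0.09, adjusted p = 0.014), with 0.08, 0.29, 0.41 and 0.76 from 2 h to 72 h and no call without the 8 h, the 24 h or the 72 h arrays. The other, Prim1, a primase subunit, lost its call in 16 of the 24 fits without 1 array. Of 20 antioxidant genes 1 fell, Prdx4, a peroxiredoxin of the endoplasmic reticulum (-0.27 ± 0.05, adjusted p = 0.0017), a call lost when its 4 probe sets were averaged. Slc10a1, the main uptake carrier of bile acids, averaged -0.23 ± 0.05 (adjusted p = 0.0087), with 12.45, 12.72 and 12.88 in DEHP livers (lowest, median, highest) and 12.72, 12.92 and 13.11 in corn oil livers, and its call was lost without the 8 h or the 24 h arrays.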
